A study of Schizosaccharomyces pombe with 6 samples.

Results

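The genes described here are 44 factors of heterochromatin, RNA interference and telomere silencing in the fission yeast Schizosaccharomyces pombe. They were taken by their symbol from a table of 5160 entries, and all 44 symbols were found once. Messenger RNA was measured by RNA sequencing in whole cells of a dsk1 mutant (3 libraries) and of the wild type (3 libraries), and the comparison asks which transcripts differ when dsk1, a kinase gene for SR splicing proteins, is disrupted. The series text calls the mutant a deletion (dsk1Δ) and the genotype label calls it a knockdown. No strain background, mating type, medium or growth stage is given in the sources used here, and nothing says whether the replicates were grown apart. The p-values therefore reflect variation among these libraries, which may be technical. Library totals were 15700362 to 19020530 counts. Along the leading axis of variation (60.1% of the total), the mutant libraries lay at -19.6 to -13.1, and of the wild-type libraries replicate 2 lay farthest off, at 37.9, against 9.54 and 2.29 for the others. Where a call among the silencing genes changes without it, that value is given as well. The dsk1 transcript itself was at 13.7, 11.3 and 11.9 CPM (counts scaled to the library total, with TMM factors) in the mutant libraries. In the wild-type libraries it was at 99.4, 102 and 99.96 CPM. The level was thus lower in the mutant but not 0, and whether the mutant is a deletion or a knockdown was not tested. In the RefSeq annotation, lsc1 covers 34.1% of dsk1 on the other strand.

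In fission yeast, heterochromatin is laid down at centromeres, telomeres and the mating-type locus by the methyltransferase Clr4, whose mark on histone H3 is bound by the chromodomain proteins Swi6, Chp2 and Chp1. At centromeres, transcripts are turned into small RNAs by the RNA-dependent RNA polymerase Rdp1 and the nuclease Dcr1, and Argonaute (Ago1) carries these back to chromatin. At telomeres the shelterin complex caps the end and helps to recruit silencing factors, among them the deacetylase complex SHREC. Histone deacetylases, histone chaperones and remodellers keep the silenced state, while Epe1 limits its spread.

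Most of these genes were transcribed at a modest level. On the FPKM scale, which allows for gene length and was computed by the authors, the 42 genes that passed the filter on low counts had a median level of 18.9 FPKM in the mutant and 17.3 FPKM in the wild type. Over all 4987 tested genes the median was 41.4 FPKM in the mutant and 39.8 FPKM in the wild type, and 8 of the 42 lay above this wild-type median. The most abundant was fft3, a chromatin remodeller of the Fun30 family, at 202 ± 2.55 FPKM in the mutant and 189 ± 12.6 FPKM in the wild type (SD, n = 3 each). It was followed by pot1, which binds the single-stranded end of the telomere, at 99.7 ± 9.45 FPKM in the mutant and 106 ± 17.9 FPKM in the wild type. Next came swi6, at 99.4 ± 15.3 FPKM in the mutant and 78.0 ± 21.3 FPKM in the wild type, and pob3, for a subunit of the histone chaperone FACT, at 75.8 ± 4.20 FPKM in the mutant and 82.3 ± 4.30 FPKM in the wild type. The wild-type levels of pob3 and swi6 differed by less than the SD of swi6. At the low end of the tested genes stood dcr1 (4.68 ± 1.52 FPKM in the mutant, 3.28 ± 0.85 FPKM in the wild type), ers1 (4.22 ± 1.34 FPKM in the mutant, 5.39 ± 1.46 FPKM in the wild type) and chp2 (5.35 ± 0.99 FPKM in the mutant, 5.40 ± 0.46 FPKM in the wild type). The levels of these low genes overlapped one another within their SD in the mutant.

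The remaining pair did not pass the filter. For spt16, the partner of pob3 in FACT and essential for growth, 0 counts were listed in every library, where a count of 3 would be 0.158 to 0.191 CPM. For stc1, the adaptor between the RNA interference and methyltransferase complexes, the counts were 7, 10 and 7 in the mutant and 3, 0 and 12 in the wild type. In the RefSeq annotation, 100% of spt16 is covered by nop2 on the other strand and 92.7% of stc1 by mug30. The nop2 transcript was at 447, 496 and 423 CPM in the mutant and 419, 220 and 366 CPM in the wild type, and mug30 at 45.8, 45.3 and 31.4 CPM in the mutant and 48.5, 62.8 and 45.8 CPM in the wild type. Whether the counting used strand is not given in the sources used here, so a level of 0 for spt16 is only what the table lists.

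Overlap of this kind touched other silencing genes as well. An opposite-strand gene covers at least 50% of 9 of the 44 genes and at least 90% of 6, namely spt16, hst4, brl2, stc1, tls1 and rik1. The rest of the 9 are cid12, poz1 and clr4, and 21 of the 44 have no opposite-strand cover at all. Over all entries with an annotation, a mean count under 10 was found for 38 of the 301 entries covered to at least 90% (12.6%) and for 104 of the 3191 entries without cover (3.26%). Whether reads of overlapping genes were split between the genes was not tested, and use of strand is not given. The counts of the 9 genes covered to at least 50% are thus uncertain.

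**Figure D1:**
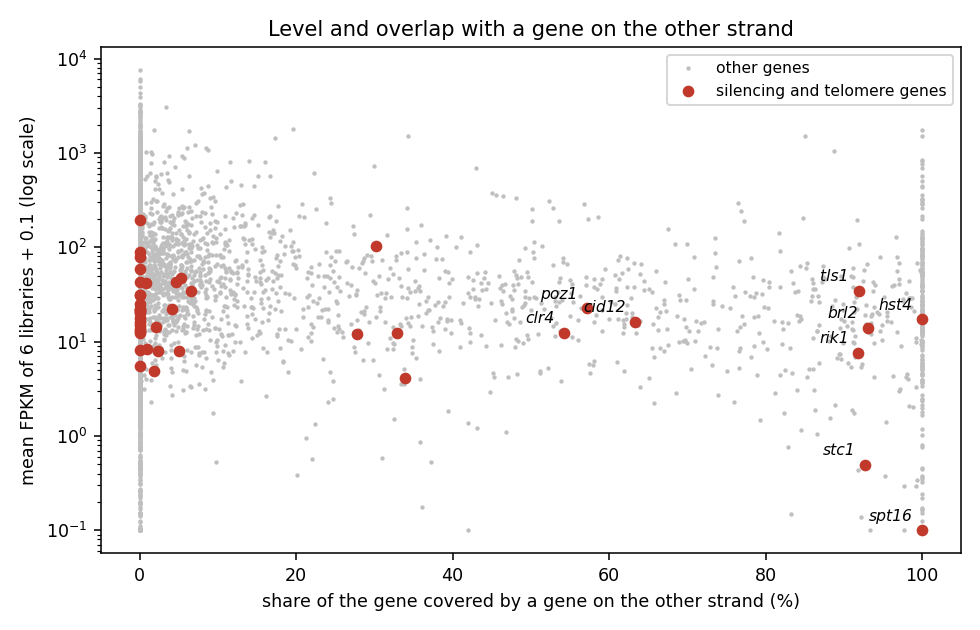
Mean FPKM of the 6 libraries plus 0.1 (log axis) against the share of each gene covered by a gene on the other strand (percent), with the 44 silencing and telomere genes in red and all other annotated entries in grey. The 9 red genes covered to at least 50% are named. Among them spt16 is listed at 0 and stc1 lies below 1 FPKM, while hst4, brl2, tls1 and rik1, also covered to at least 90%, lie well above.

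Of the 42 tested genes, 1 passed the test. The splicing factor gene tls1 rose in the mutant and 0 genes fell, at an adjusted p under 0.05 in edgeR's quasi-likelihood test, which is 1 of 42 (2.38%) against 101 of 4987 tested genes called (2.03%), 22 higher (0.441%) and 79 lower (1.58%). Before adjustment, 7 of the 42 had a p under 0.05, 5 of them higher and 2 lower, which is 16.7% against 22.7% of all tested genes. DESeq2 called 3 of 43 genes (6.98%), tls1 and epe1 higher and sir2 lower, against 11.1% of all genes it tested, and limma called tls1 alone. With both directions pooled, these counts lay near or below the background. By sign alone, 30 of the 42 had a log2 fold change above 0 (71.4%), against 50.0% of all tested genes, and the median was 0.19 against -0.00 over all tested genes. Of the 42, 37 differed by less than 1.5-fold in either direction and 5 by more (11.9%, against 13.8% of all tested genes). These 5 were tls1, epe1 and hip1 on the higher side and sir2 and clr2 on the lower side. In 7 of the 42 (16.7%) no mutant library overlapped a wild-type library, against 32.1% of all tested genes: tls1, epe1, clr6, taz1, clr3 and cbh2 higher, and sir2 lower.

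**Figure D2:**
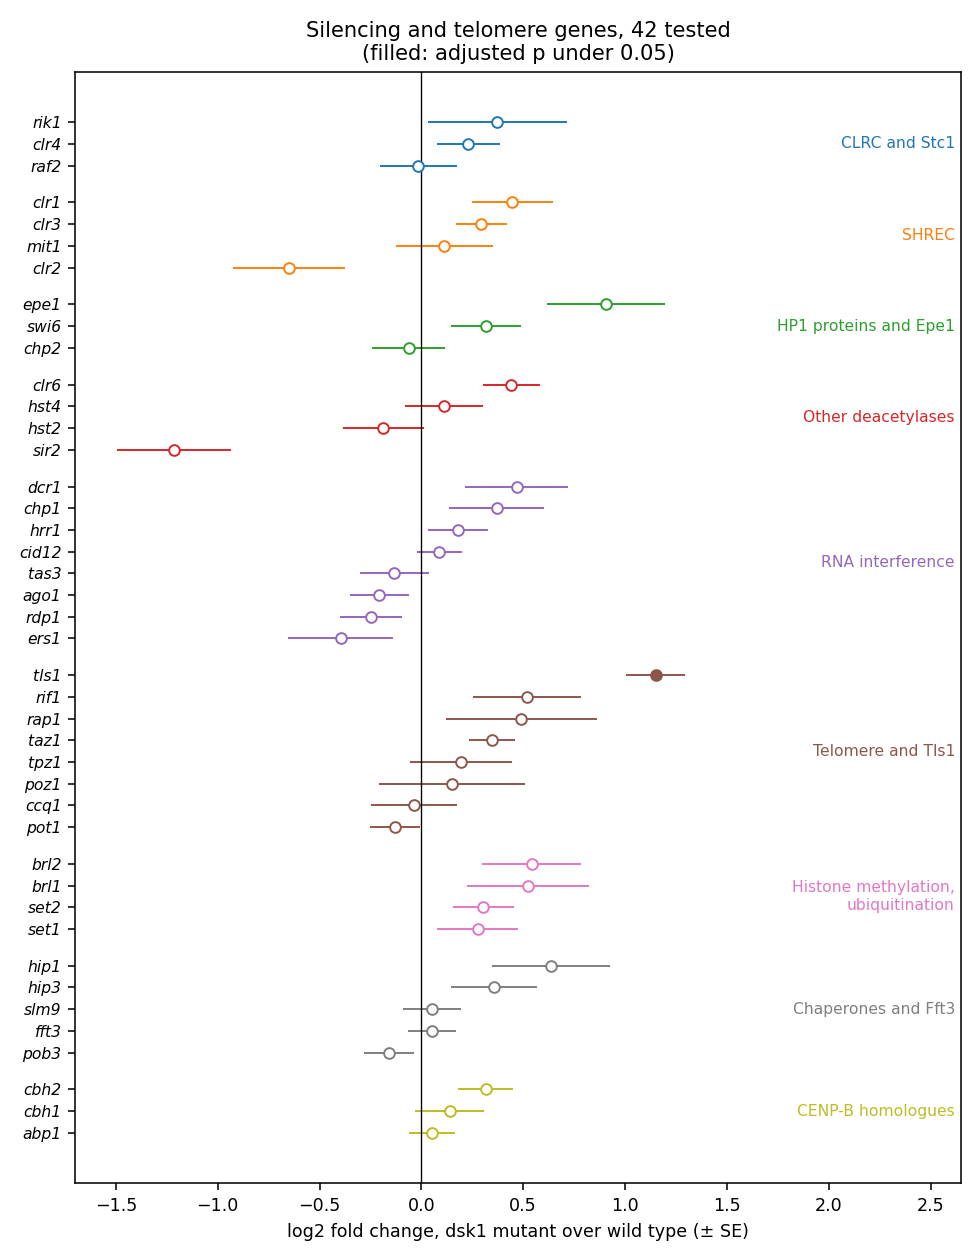
Log2 fold change of the dsk1 mutant over the wild type for the 42 tested genes, by complex or role. Bars show the standard error, derived from the fold change and the F statistic of the test. Filled points have an adjusted p under 0.05. Only tls1, at 1.15, is filled. The points for sir2 at -1.21 and epe1 at 0.91 lie farthest from 0 among the open ones.

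Among the telomere genes, tls1 stood at 91.6, 79.1 and 96.6 CPM in the mutant libraries, against 42.3, 44.0 and 34.2 CPM in the wild-type libraries. Every mutant library lay above every wild-type library by more than the whole range of either group. The rise was 2.22-fold, a log2 fold change of 1.15 (SE 0.15, edgeR adjusted p = 0.0208). In a bulk culture, a change in all cells and a change in some of them cannot be told apart. In fission yeast Tls1 is needed for correct splicing of the shelterin transcripts rap1 and poz1. The call held with DESeq2 and limma and without wild-type replicate 2 (adjusted p = 0.0025) or 3, and it was lost without any single mutant library or wild-type replicate 1 (log2 fold change 1.09 to 1.23, adjusted p = 0.0736 to 0.141).

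The tls1 gene has no intron in the RefSeq annotation and is covered by grh1 over 91.9% of its span, so its counts are uncertain. The grh1 transcript was at 158, 198 and 183 CPM in the mutant and 181, 131 and 198 CPM in the wild type, with overlapping groups and a log2 fold change of 0.08 (SE 0.18, adjusted p = 0.801). The difference in grh1 was smaller than its standard error.

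The targets of Tls1 in shelterin did not pass the test. The rap1 transcript, whose product links Taz1 to the rest of shelterin, was at 22.3, 23.6 and 16.2 CPM in the mutant and 17.4, 6.86 and 19.9 CPM in the wild type. Its groups overlapped, with wild-type replicate 2 far below the other libraries, and its log2 fold change was 0.49 (SE 0.37), or 0.16 without that library. The poz1 transcript, for the bridge between the double-strand and single-strand binding parts, was at 48.1, 61.5 and 46.4 CPM in the mutant and 47.7, 22.7 and 69.98 CPM in the wild type, a log2 fold change of 0.15 (SE 0.36) that was -0.18 without wild-type replicate 2. Both genes have 2 introns, and a table of counts per gene does not show whether these were spliced. Further, dlp1 covers 57.1% of poz1 on the other strand, and its own log2 fold change was 0.89 (edgeR adjusted p = 0.138), with groups that did not overlap. It passed with DESeq2 (adjusted p = 0.0352) and, with edgeR, without wild-type replicate 2 (log2 fold change 0.61, adjusted p = 0.0232).

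Of the other telomere genes, taz1, for the protein that binds double-stranded telomeric repeats, was at 92.1, 89.2 and 83.3 CPM in the mutant and 74.1, 63.98 and 69.7 CPM in the wild type. The groups did not overlap, and the log2 fold change of 0.35 (SE 0.11) did not pass (adjusted p = 0.138). The replication-timing and telomere factor gene rif1 was at 80.2, 85.3 and 51.4 CPM in the mutant and 57.6, 34.3 and 59.5 CPM in the wild type (log2 fold change 0.52, SE 0.26), with mutant replicate 3 inside the wild-type range. The remaining shelterin genes were nearer 0, with tpz1 at 0.20 (SE 0.25), ccq1, whose product helps to recruit telomerase, at -0.03 (SE 0.21) and pot1 at -0.13 (SE 0.12).

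**Figure D3:**
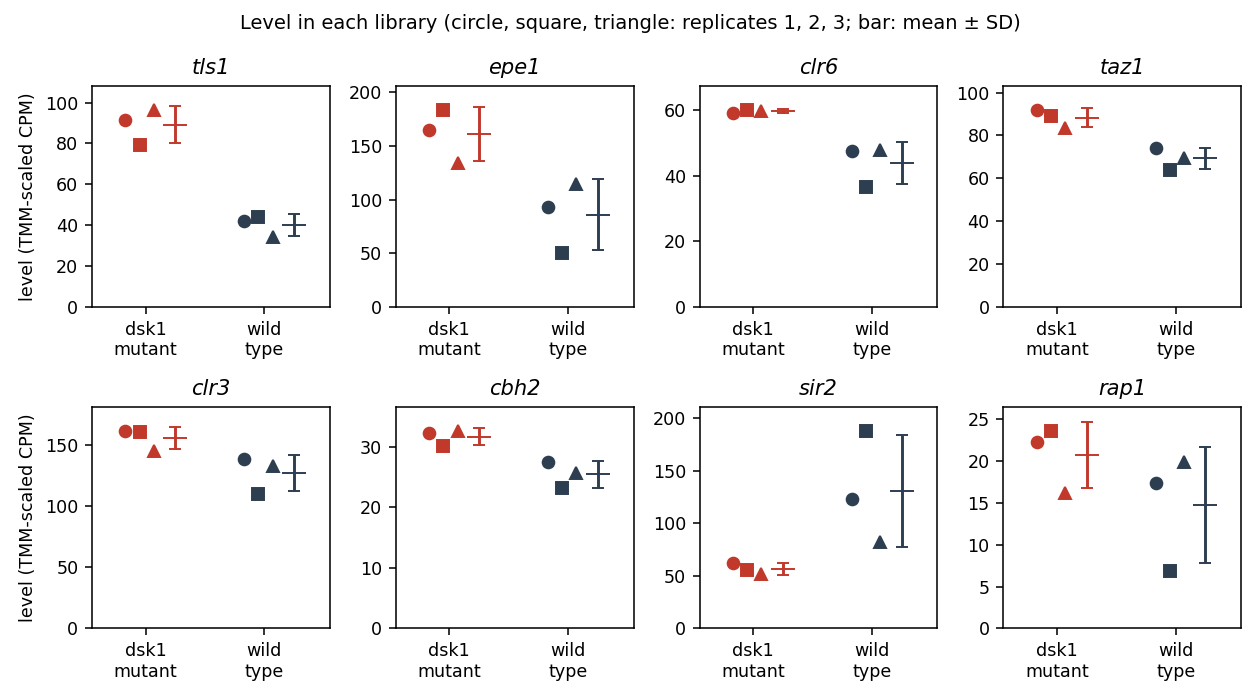
Level in TMM-scaled CPM (axes from 0) of 8 genes in each of the 3 dsk1 mutant libraries (red, left) and 3 wild-type libraries (dark, right), with mean and SD as bars. The first 7 panels are the genes without overlap between the groups, and rap1 is shown as a target of Tls1. Wild-type replicate 2 (square) is the lowest wild-type library for epe1, clr6, taz1, clr3, cbh2 and rap1 and the highest for sir2.

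Among the proteins that read or limit the heterochromatin mark, epe1 had the largest difference. This gene for a JmjC-domain protein that counters heterochromatin was at 165, 184 and 134 CPM in the mutant and 93.1, 49.8 and 114 CPM in the wild type. The groups did not overlap, but the lowest mutant library and the highest wild-type library were close. The log2 fold change was 0.91 (SE 0.29, 1.88-fold) and did not pass with edgeR (adjusted p = 0.133). It passed with DESeq2 (adjusted p = 0.0292) and, with edgeR, without wild-type replicate 2 (log2 fold change 0.64, adjusted p = 0.0381). The HP1 gene swi6 was at 161, 179 and 147 CPM in the mutant and 141, 100.1 and 150 CPM in the wild type (log2 fold change 0.32, SE 0.17, adjusted p = 0.308), with overlapping groups. The other HP1 gene, chp2, had a log2 fold change of -0.06 (SE 0.18), with overlapping groups.

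The deacetylase genes did not move together. The NAD-dependent deacetylase gene sir2, which acts at all the silenced regions, was at 62.1, 55.3 and 51.6 CPM in the mutant and 123, 188 and 81.9 CPM in the wild type. All mutant libraries lay below all wild-type libraries, and the wild-type libraries spread over a range wider than the gap between the groups. Its log2 fold change of -1.21 (SE 0.28), a level 2.32 times higher in the wild type, did not pass with edgeR (adjusted p = 0.0706). The difference passed with DESeq2 (adjusted p = 0.00141) and, with edgeR, without wild-type replicate 2 (log2 fold change -0.86, adjusted p = 0.02) or 3 (-1.46, adjusted p = 0.0173). In the authors' deposited table, 3 of the 44 genes had an adjusted p under 0.05 (6.82%, against 11.0% of all entries), with the same adjusted p as the DESeq2 fit here, so the table is not a separate result: tls1 (log2 fold change 1.20), sir2 (-1.13) and epe1 (0.93).

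The gene of the class I deacetylase Clr6, which is essential and acts broadly on promoters and coding regions, differed in the other direction. It was at 59.2, 60.2 and 59.9 CPM in the mutant and 47.6, 36.6 and 47.9 CPM in the wild type, and the groups did not overlap. The log2 fold change of 0.44 (SE 0.14) did not pass (adjusted p = 0.133). The sirtuin genes hst2 and hst4 were at -0.19 (SE 0.20) and 0.11 (SE 0.19), both with overlapping groups. All of hst4 is covered by fta2 on the other strand.

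In the methyltransferase complex CLRC, none of the 3 tested genes passed. The clr4 transcript was at 66.5, 63.0 and 47.7 CPM in the mutant and 52.3, 52.6 and 46.4 CPM in the wild type (log2 fold change 0.23, SE 0.15, adjusted p = 0.395). The groups overlapped through mutant replicate 3. The scaffold gene rik1 was at 36.0, 39.9 and 28.7 CPM in the mutant and 30.5, 13.6 and 36.6 CPM in the wild type (log2 fold change 0.37, SE 0.34), with wild-type replicate 2 apart, and was at 0.06 without it. On the other strand, SPCC11E10.09c covers 91.9% of rik1 and meu6 covers 54.2% of clr4. The SPCC11E10.09c transcript was also lowest in wild-type replicate 2. Its log2 fold change was 0.92 (SE 0.54), or 0.48 without that library, and that of meu6 was -0.24 (SE 0.38). The third, raf2, was at -0.02 (SE 0.19).

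SHREC, which joins a deacetylase to a remodeller, was split in direction without a call. Its deacetylase gene clr3 was at 161, 160 and 145 CPM in the mutant and 138, 110 and 132 CPM in the wild type (log2 fold change 0.29, SE 0.13, adjusted p = 0.220), without overlap. The clr1 gene, for a zinc-finger subunit, was at 66.2, 64.3 and 40.8 CPM in the mutant and 45.7, 41.1 and 38.9 CPM in the wild type (log2 fold change 0.45, SE 0.20), and the remodeller gene mit1 was at 0.11 (SE 0.24). In contrast, clr2 was at 58.7, 44.4 and 41.8 CPM in the mutant and 72.4, 105 and 49.7 CPM in the wild type. Its log2 fold change of -0.65 (SE 0.27, adjusted p = 0.216) was -0.33 without wild-type replicate 2, which held its highest value.

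The 8 RNA interference genes lay on both sides of 0, 4 above and 4 below, with a median of -0.02 and a range of -0.40 to 0.47, and none passed. The largest difference was that of dcr1, at 30.4, 28.9 and 17.5 CPM in the mutant and 21.7, 14.7 and 19.2 CPM in the wild type (log2 fold change 0.47, SE 0.25, adjusted p = 0.302), with mutant replicate 3 inside the wild-type range. Genes of the effector complex RITS differed in sign, with chp1 at 0.37 (SE 0.23), tas3 at -0.13 (SE 0.17) and ago1 at -0.21 (SE 0.14). In the polymerase complex, rdp1 was at 93.5, 96.3 and 71.5 CPM in the mutant and 106, 112 and 92.1 CPM in the wild type (log2 fold change -0.25, SE 0.15, adjusted p = 0.352). Its partners hrr1, for a helicase, and cid12, for a poly(A) polymerase family protein, were at 0.18 (SE 0.15) and 0.09 (SE 0.11). The gene ers1, also needed for RNA interference, was at 14.1, 14.0 and 8.36 CPM in the mutant and 17.1, 12.4 and 18.5 CPM in the wild type (log2 fold change -0.40, SE 0.26).

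Genes of other histone modifiers were all above 0 without a call, with a median of 0.41 over 4 genes. The ubiquitin ligase genes brl1 and brl2, which act together on histone H2B, had similar values. The level of brl1 was 72.7, 59.4 and 44.9 CPM in the mutant and 46.1, 24.3 and 52.6 CPM in the wild type (log2 fold change 0.52, SE 0.30, adjusted p = 0.325). That of brl2 was 63.4, 59.0 and 36.4 CPM in the mutant and 36.1, 29.3 and 43.8 CPM in the wild type (log2 fold change 0.54, SE 0.24, adjusted p = 0.233). In both genes mutant replicate 3 fell within the wild-type range, and 93.1% of brl2 is covered by sec8 on the other strand. The methyltransferase genes set2 and set1, which act on histone H3 in transcribed genes, were at 0.30 (SE 0.15) and 0.28 (SE 0.20).

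The histone chaperone genes ranged from -0.16 to 0.64. In the HIRA complex, which deposits histones outside replication, hip1 was at 86.9, 97.2 and 65.1 CPM in the mutant and 57.9, 31.7 and 70.5 CPM in the wild type (log2 fold change 0.64, SE 0.29, adjusted p = 0.239), and at 0.37 without wild-type replicate 2. Its partners hip3 and slm9 were at 0.36 (SE 0.21) and 0.05 (SE 0.14). The FACT gene pob3 was at 130, 131 and 160 CPM in the mutant and 158, 163 and 150 CPM in the wild type (log2 fold change -0.16, SE 0.12), and fft3 was at 0.05 (SE 0.12).

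The CENP-B homologues, DNA-binding proteins that in fission yeast silence Tf2 retrotransposons, did not pass the test. The cbh2 transcript was at 32.3, 30.1 and 32.6 CPM in the mutant and 27.5, 23.1 and 25.7 CPM in the wild type. The groups did not overlap, and the log2 fold change of 0.32 (SE 0.14) did not pass (adjusted p = 0.220). The other homologues, cbh1 and abp1, were at 0.14 (SE 0.17) and 0.05 (SE 0.11), with overlapping groups.

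Individual libraries moved many of these genes at once. The median deviation of the 42 genes from their own mean over the 6 libraries (log2 scale) was 0.20, 0.19 and -0.07 in mutant replicates 1, 2 and 3, and -0.01, -0.18 and -0.04 in wild-type replicates 1, 2 and 3, while the median over all tested genes stayed within 0.01 of 0 in each. Mutant replicate 3 was the lowest mutant library for 31 of the 42 genes, against 43.6% of all tested genes, and wild-type replicate 2 was the lowest wild-type library for 24, against 45.6% of all tested genes. Wild-type replicate 2 was also the highest wild-type library for 14 of the 42, as were wild-type replicates 1 and 3 for 14 each. The medians of mutant replicates 1 and 2 thus stood above those of the other libraries, and that of wild-type replicate 2 below them. Without wild-type replicate 2 the median log2 fold change was 0.16 and 3 genes were called, tls1 and epe1 higher and sir2 lower, which is 3 of 43 (6.98%) against 9.32% of the genes tested in that fit. The log2 fold changes of 21 of the 42 moved by over 1.5 times without it, 10 towards 0, among them swi6 to 0.16 and brl1 to 0.26, and 11 away from 0 or across it. Without mutant replicate 3 the median was 0.29 and 0 of the silencing genes were called, with 3 called over all genes.

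**Figure D4:**
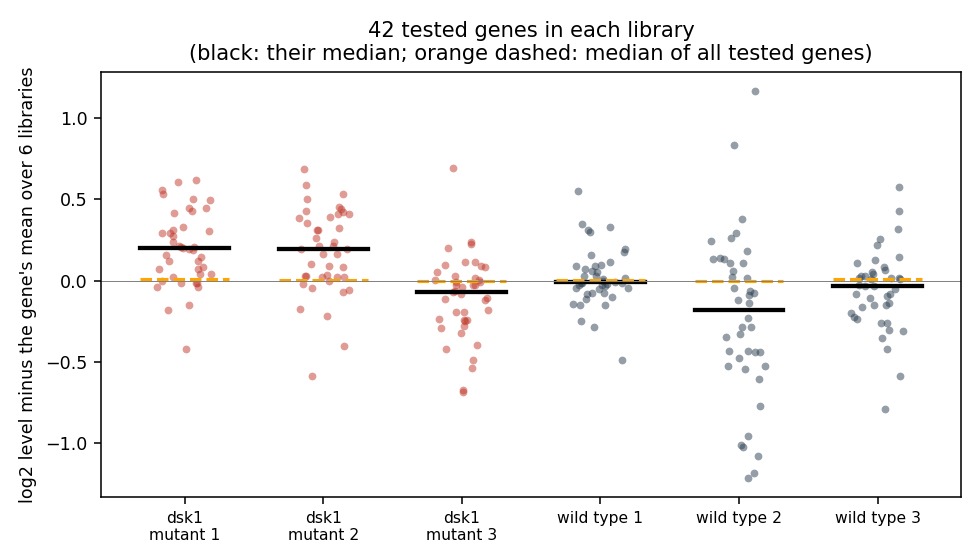
Deviation of each of the 42 tested genes from its own mean over the 6 libraries (log2 of CPM plus 0.5) in the 3 dsk1 mutant libraries (red, left) and the 3 wild-type libraries (dark, right). The black bar is the median of the 42 genes and the orange dashed bar that of all tested genes. The black bars lie at 0.20 and 0.19 in mutant replicates 1 and 2, at -0.18 in wild-type replicate 2 and near 0 in the others.

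Length moved with these values. The 44 genes are long, with exon lengths of 908 to 5668 bases, and the 42 tested genes have a median of 2755 bases, against 1712 bases over the tested genes with an annotation; 37 of the 42 are longer than that. Across genes, which are not independent replicates, the deviation of a library from the mean increased with exon length in mutant replicates 1 and 2 (Spearman 0.308 and 0.306 over 4952 genes). It decreased with length in wild-type replicates 2 and 3 (-0.171 and -0.160), and less so in wild-type replicate 1 (-0.082) and mutant replicate 3 (-0.069). The sign of this trend thus did not follow genotype in every library. With genes ranked by exon length into 4 equal bins, the shortest bin had a median log2 fold change of -0.12 and the longest 0.12. The 1367 tested genes with an exon length in the middle range of these genes, 2131 to 3909 bases, had a median of 0.09. With a length trend removed from each library, the median of the 42 was 0.12, with 24 of them above 0 (57.1%, against 49.4% of all tested genes), and tls1 was again the single call (log2 fold change 1.14, adjusted p = 0.0203), while epe1 was at 0.77 and sir2 at -1.23.

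**Figure D5:**
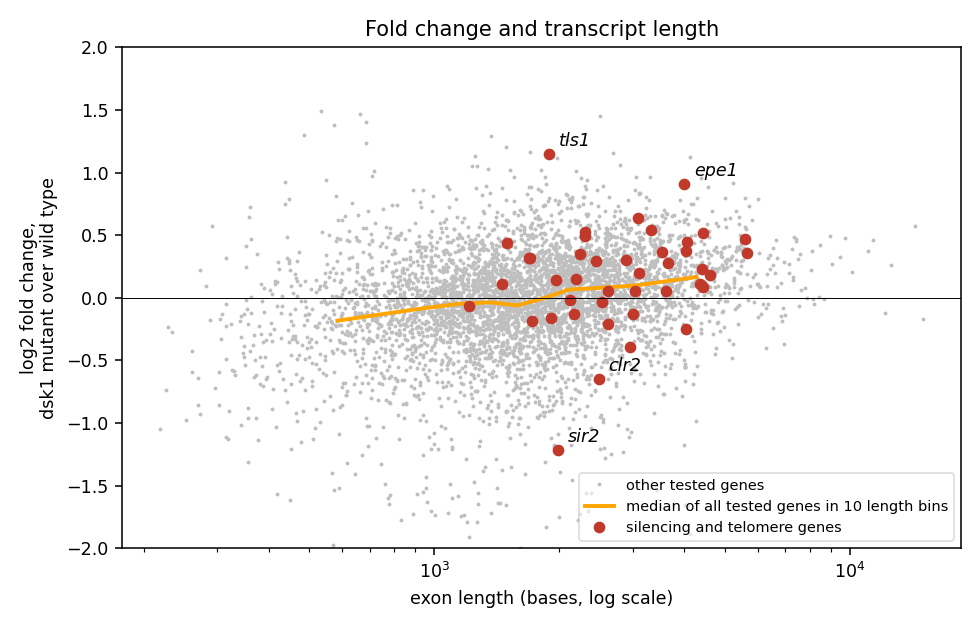
Log2 fold change of the dsk1 mutant over the wild type against exon length in bases (log axis), for the 42 tested genes (red) and all other tested genes (grey). The orange line joins the medians of all tested genes in 10 length bins and increases with length. Most red points lie at lengths where that line is above 0, and 30 grey points fall beyond the vertical axis.

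Introns were compared because Dsk1 acts on splicing proteins. Of the 42 tested genes, 17 have at least 1 annotated intron and 25 have none. The median log2 fold change was 0.05 in the genes with introns, 9 of 17 above 0, and 0.30 in those without, 21 of 25 above 0. Over all tested genes the medians were -0.02 in 2402 genes with introns and 0.02 in 2550 without. The difference between the kinds of gene was not tested, and these medians do not allow for exon length. Among the genes with many introns, clr6 with 13 was at 0.44, ers1 with 10 at -0.40, tpz1 with 6 at 0.20 and sir2 with 5 at -1.21, so neither sign was shared.

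Other factors of the same complexes and pathways were looked at as well. Of 67 further genes, 64 were tested and edgeR called 0 of them (2.03% of all genes), with 8 of them past 0.05 before adjustment (22.7% of all genes), 4 in each direction. DESeq2 called 3 of 67, where 11.1% of all its genes were called, and limma called 0. Their median was 0.12, with 37 above 0. The Clr6 complex gene cti6 was at 35.4, 38.6 and 44.6 CPM in the mutant and 26.7, 23.9 and 29.8 CPM in the wild type, without overlap (log2 fold change 0.56, SE 0.15, edgeR adjusted p = 0.102, DESeq2 adjusted p = 0.021). In the other direction, nts1, of the same deacetylase complexes, was at 18.9, 16.8 and 11.2 CPM in the mutant and 28.7, 56.9 and 20.7 CPM in the wild type (log2 fold change -1.17, SE 0.38, edgeR adjusted p = 0.140). The RNA-binding protein gene seb1, which acts in heterochromatin formation, was at 226, 242 and 233 CPM in the mutant and 404, 697 and 270 CPM in the wild type (log2 fold change -0.97, SE 0.31, edgeR adjusted p = 0.135). DESeq2 called both nts1 and seb1, and wild-type replicate 2 held the highest value of each. Without that library, nts1 was at -0.65 (edgeR adjusted p = 0.120) and seb1 at -0.53 (edgeR adjusted p = 0.0753). Without wild-type replicate 3, edgeR called seb1 (log2 fold change -1.24). The gene dsh1, for a factor of RNA interference, was at -0.41 (SE 0.27) and was called by edgeR without wild-type replicate 2 (log2 fold change -0.65, adjusted p = 0.0319).

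Of the genes with the smallest p in the remaining classes, none passed, with bqt4, for a protein that anchors telomeres to the nuclear envelope, at 0.49 (SE 0.22), the histone chaperone gene spt6 at 0.46 (SE 0.20) and eaf6, of an acetyltransferase complex, at -0.39 (SE 0.14). Chosen after its value was seen, set9, for the methyltransferase of histone H4, was at 0.79 (SE 0.53, edgeR adjusted p = 0.396). Chosen likewise, tri1, for an exonuclease that trims small RNAs, was at -1.01 (SE 0.44, edgeR adjusted p = 0.225). Without wild-type replicate 2, set9 was at 0.35 and tri1 at -0.23. Of the genes at islands of heterochromatin, whose own transcripts are kept low in growing cells, mei4 was at 40.8, 43.3 and 39.9 CPM in the mutant and 32.4, 27.8 and 38.3 CPM in the wild type (log2 fold change 0.33, SE 0.15, adjusted p = 0.245). The others, ssm4 and mcp7, were at -0.40 (SE 0.36) and -0.18 (SE 0.33), and none of these targets passed. With single libraries left out, ssm4 ranged from -0.67 to -0.02 and mcp7 from -0.46 to 0.25, so the direction of mcp7 was not settled.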

How the data were processed

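For each gene and library the deposited table holds a raw count and an FPKM (a level per length), per the file headers. It also holds the authors' comparison as a log2 ratio with its p-value and FDR. According to the submitters' processing notes, DESeq2, RSEM, StringTie, HISAT2, Bowtie2 and fastp were used, with versions and order not given. The build and any use of strand are not given in the sources used. RNA was extracted with Trizol and selected with oligo(dT), per the labels' protocols.

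The main test was edgeR 4.0.16 (quasi-likelihood, R 4.3.3) on the deposited counts with TMM, the default filter and genotype as the only term. It covered 4987 genes, with Benjamini-Hochberg adjustment over all of them and calls at an adjusted p under 0.05. Fold changes are given as mutant over wild type. Each SE of a log2 fold change is its absolute value divided by the square root of the test's F statistic. Alternatives were DESeq2 1.42.0, limma 3.58.1 on log2(FPKM + 1), other scalings and filters, and single libraries left out. The code was tested on simulated data. RefSeq ASM294v3 matched 5110 of 5160 entries and gave exon length, introns and overlaps only. Members, lists and tests were chosen with earlier results of these data known. Every tested member may be named. Values per library are given for called members, for the leading members of each class and for tls1, rap1 and poz1. Of 70 further names, 3 matched no symbol. Replicate pairs differed by more than sampling noise (chi-square per degree of freedom 26.7 to 280). A floor of 3 counts covers counting error only.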

Additional observations from a re-analysis of the deposited data

How the results depend on the processing

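The 101 calls over all genes became 568 with DESeq2 and 5 at an adjusted p under 0.01, and 3 to 466 with single libraries left out. The 1 call among the 42 silencing genes became 3 with DESeq2, 0 at an adjusted p under 0.01, and 0 to 3 with single libraries left out. The 0 calls among the further genes became 3 with DESeq2 and 0 to 1 with single libraries left out. The median log2 fold change of the silencing genes (0.19) ranged from 0.12 to 0.29 under the alternatives run. The same median, taken for each mutant library against the wild-type mean, had an SD of 0.16 over the mutant libraries. All alternatives reuse the same 6 libraries, so their range does not measure the spread between cultures. Deviations of same-numbered libraries had correlations of 0.165, -0.358 and -0.187, and those of differently numbered mutant and wild-type libraries ranged from -0.23 to 0.41. With 3 libraries per group, these values cannot decide whether the samples were paired. With a replicate block, 3 genes and 0 of the 42 were called.

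Of 818 values of 51 single genes under the alternatives, 24 turned sign, in 12 genes whose main value lay within 0.20 of 0. With the length trend removed, mit1 was at -0.080, hrr1 at -0.011, cid12 at -0.080, slm9 at -0.024, fft3 at -0.080 and abp1 at -0.052. With limma, raf2 was at 0.0066 on log2(FPKM + 1), both filtered and over all genes, and 0.0049 on log2(FPKM + 0.1), and ccq1 at 0.035 and 0.045. With single libraries left out, raf2 ranged from -0.13 to 0.16, mit1 from -0.094 to 0.35, chp2 from -0.15 to 0.037, hst4 from -0.051 to 0.22, tpz1 from -0.012 to 0.49, poz1 from -0.18 to 0.56, ccq1 from -0.22 to 0.14, slm9 from -0.057 to 0.17 and abp1 from -0.0086 to 0.098. Because of their low counts, spt16 and stc1 gave no fold change in the main test.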
